A study of Zea mays with 4 samples.

Results

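The chromatin and histone modifier genes of maize are described here by their expression in the internode of the stem that carries the ear, at early silking and at tassel emergence. Members were the probe sets whose gene symbol or RefSeq synonym is mez1, mez2 or mez3, or is made of a prefix used for plant chromatin genes and a 3-digit number that begins with 1, as in hda106. Most matched through a RefSeq synonym. The rule found 61 probe sets of 45 genes, among 17621 probe sets without controls and 1108 genes that the platform table names. They fell into 14 families by prefix, and the remaining prefixes of the rule (nfe, chr, chb, chc, chd, hmg and met) matched no gene. All samples were ear internodes of untreated plants of line F271, grown in an irrigated field during a dry and hot summer, and F271 is the unfavourable parent of a mapping population studied for lignin and cell wall degradability. Early silking and tassel emergence each had 2 Affymetrix maize arrays, hybridised with biotin-labelled RNA after amplification. RNA amounts were 340 and 400 ng at early silking and 290 and 440 ng at tassel emergence. Whether the replicates were separate plants is not in the labels, and the p-values reflect a spread between samples that could be technical only.

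DNA in the nucleus is wound around histone proteins into nucleosomes. Enzymes that add or remove acetyl and methyl groups on histones, proteins that read DNA methylation, and chaperones that place histones on DNA together set how accessible a gene is. In a stem segment these proteins are needed both for copying chromatin in dividing cells and for keeping expression states in cells that have stopped dividing. A whole internode mixes such cells, so fewer cells of a type and less RNA per cell cannot be told apart in these values.

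Most members had higher values at early silking than at tassel emergence. Among members above a log2 value of 4 on all 4 arrays, the nucleosome assembly proteins of the nfa family were furthest in that direction. The polycomb gene mez1 was furthest in the other. The deacetylase gene hda106 had the largest raw difference, but its tassel emergence values were below 4, so its rank is not settled. It is included in the counts of higher members below. Testing took in the probe sets that exceeded a log2 value of 4 on 2 or more of the 4 arrays, and a gene was represented by its tested probe set with the highest mean. Of the 45 genes, 43 were tested. Their differences, early silking minus tassel emergence, had a median of 0.35 on the log2 scale, against 0.10 over all 10782 tested probe sets and 0.06 over the 800 tested named genes. The difference was positive in 34 members (79.1%) and negative in 9, where it was positive in 57.4% of tested probe sets and 54.6% of tested named genes. No member passed a Benjamini-Hochberg adjusted p of 0.05 (limma, lowest adjusted p = 0.0864), and the share of all tested probe sets that passed was 0%.

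The stages were separate in the higher direction, with both silking arrays above both tassel emergence arrays, in 23 members (53.5%). The same held for 34.9% of all tested probe sets and for 31.2% of the named genes. They were separate in the lower direction in 3 members (6.98%), against 24.9% of tested probe sets and 25% of named genes. At an unadjusted p under 0.05, 11 members (25.6%) were higher, where 12.7% of tested probe sets and 11.9% of named genes were. At the same threshold 2 members (4.65%) were lower, beside 12.1% of tested probe sets and 13.1% of named genes. Without the 4 nfa genes, 7 of 39 members (17.9%) were higher at that threshold and 19 (48.7%) were separate and higher. When single arrays were left out, fewer members were higher at that threshold in every case. The share of all tested probe sets fell strongly without an early silking array and little without a tassel emergence array. With a tassel emergence array left out, the members were thus closer to the background than with all 4 arrays. The median over members ran from 0.27 to 0.47 with each array left out in turn. With the replicate number as a block in the fit, 6 members were higher and 1 lower at an unadjusted p under 0.05. Of tested probe sets 5.8% were higher and 8.99% lower in the fit with the block.

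**Figure D1:**
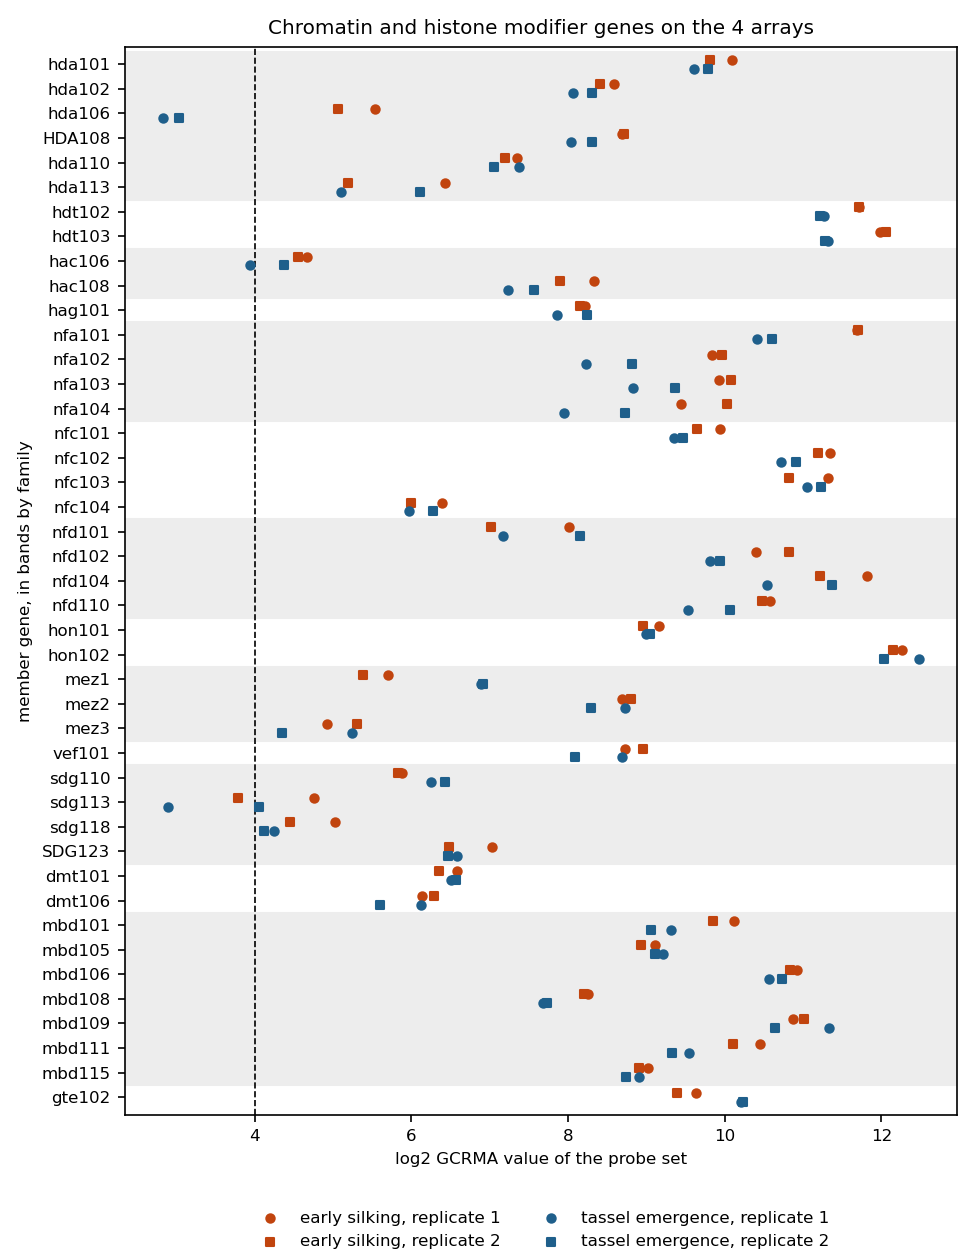
Log2 values of the 43 tested members (1 row each, in bands by family) on the 2 early silking arrays (red) and the 2 tassel emergence arrays (blue), with circles for replicate 1 and squares for replicate 2. The dashed line is the log2 value of 4 used in the filter. In the nfa rows every red point lies to the right of every blue point, and in the mez1 row every red point lies to the left.

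Histone deacetylases remove acetyl groups from histone tails and are mostly known as repressors of transcription. All 6 tested hda genes and both hdt genes had positive differences, with a median of 0.39 over these 8, and 6 of the 8 had separate stages. The others, hda110 and hda113, changed sign when single arrays were left out. Of all tested probe sets, 57.4% had positive differences and 34.9% were separate in the higher direction. The hda genes encode deacetylases of the type shared with yeast and animals. hda106 had log2 values of 5.53 and 5.07 at early silking and of 2.83 and 3.03 at tassel emergence. Both silking arrays were above the filter value of 4 and both tassel emergence arrays below it, so hda106 entered the test through its silking arrays alone. Set against 4 as a floor, hda106 was at least 2.46-fold higher at early silking, and this bound was not tested. The raw difference of 2.37 had an adjusted p of 0.0864 (limma). That p rests on the selection and on tassel emergence values below the filter, and is no support for the difference or the bound.

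The other hda genes differed less between the stages. HDA108, also named hd1b, had values of 8.69 and 8.71 at early silking and of 8.03 and 8.31 at tassel emergence. The stages did not overlap, and the difference was 0.53 (SE 0.20, limma, adjusted p = 0.210). hda102 and hda101, which also carries the name rpd3 after the yeast deacetylase, had differences of 0.31 and 0.26, with separate stages. hda110 and hda113 overlapped between the stages, at differences of 0.06 and 0.20. With each array left out in turn, these ran from -0.10 to 0.22 and from -0.42 to 0.82. A further deacetylase gene, outside the rule and listed as rpd3 with the synonym Hda1, had 7.57 and 7.35 at early silking and 8.10 and 7.11 at tassel emergence, a difference of -0.15 with overlap. Of the hda genes, hda113 varied most within a stage, at 6.44 and 5.19 on the silking arrays and 5.11 and 6.12 on the tassel emergence arrays.

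The hdt genes encode HD2-type deacetylases, a plant family first described in maize and known for proteins of the nucleolus. hdt103 had values of 11.98 and 12.06 at early silking and of 11.31 and 11.29 at tassel emergence, which differ by 0.72 (SE 0.17, limma, adjusted p = 0.133). The replicates of hdt103 lay close together at each stage and the stages did not overlap. Its other tested probe sets differed by 0.73 and 1.31 in the same direction, and the larger of these is of a type whose probes may bind further transcripts. hdt102 had 11.72 and 11.71 at early silking and 11.27 and 11.22 at tassel emergence. The difference was 0.47 (SE 0.17, limma, adjusted p = 0.205).

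Histone acetyltransferases act against the deacetylases. All 3 measured genes had positive differences, where 57.4% of all tested probe sets did, and none reached an unadjusted p of 0.05. hac108, also named ham101, had 8.33 and 7.90 at early silking and 7.24 and 7.57 at tassel emergence, a difference of 0.71 without overlap (limma, adjusted p = 0.204). hac106, with the synonym hat1, lay near the filter value, at 4.67 and 4.56 at early silking and 3.94 and 4.37 at tassel emergence. hag101, the maize gcn5 gene for the acetyltransferase of transcriptional coactivator complexes, had a difference of 0.13 and overlapping stages. Without tassel emergence replicate 1 the hag101 difference was -0.06.

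The nfa genes encode proteins of the NAP family, histone chaperones that carry histones H2A and H2B and help to assemble nucleosomes. The family was higher at early silking in all 4 genes, with separate stages in each, an unadjusted p under 0.05 in the probe set representing each and a median difference of 1.28. Of all tested probe sets, 57.4% had positive differences, 34.9% were separate in the higher direction and 12.7% were higher at that threshold. nfa101 had values of 11.69 and 11.70 at early silking and of 10.42 and 10.61 at tassel emergence. The silking replicates of nfa101 nearly coincided, and the difference of 1.18 had an SE of 0.18 (limma, adjusted p = 0.0938).

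nfa102 had 9.83 and 9.96 at early silking and 8.23 and 8.81 at tassel emergence, which differ by 1.37 (SE 0.27, limma, adjusted p = 0.111). nfa103 had 9.93 and 10.08 at early silking and 8.83 and 9.37 at tassel emergence, which differ by 0.90. In each of these genes the lower silking array stood above the higher tassel emergence array by more than the spread within early silking. nfa104 had 9.44 and 10.03 at early silking and 7.95 and 8.74 at tassel emergence, and its 2 silking arrays were further apart than those of the other nfa genes. The nfa104 difference of 1.39 came from a probe set of a type shared by several transcripts, while its unshared probe set differed by 0.88 in the same direction and did not reach an unadjusted p of 0.05 (limma, unadjusted p = 0.0601).

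**Figure D2:**
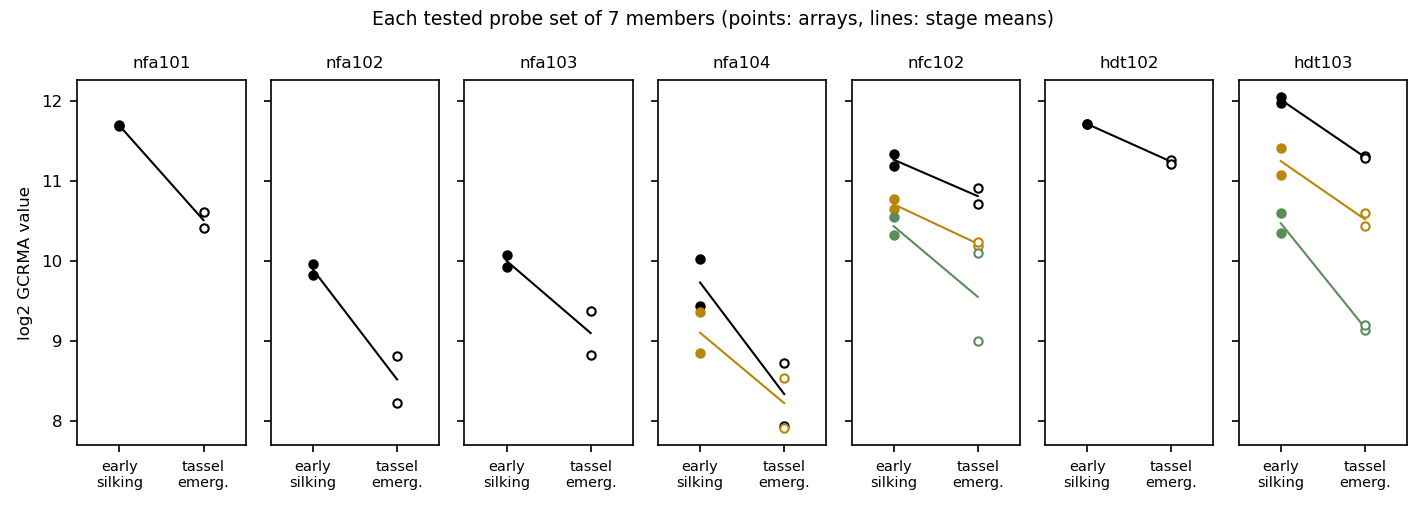
Log2 values of every tested probe set of the 4 nfa genes, nfc102, hdt102 and hdt103, with filled points for the early silking arrays, open points for the tassel emergence arrays and a line between the stage means. Colours separate the probe sets of 1 gene. In each probe set shown, both filled points lie above both open points.

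The nfc genes encode WD-repeat proteins of the MSI1 and RbAp48 type, which bind histones in chromatin assembly, deacetylase and polycomb complexes. nfc102 was measured by 3 probe sets with differences of 0.46, 0.49 and 0.88, all without overlap. nfc101, also named rbap2, differed by 0.38 without overlap. nfc103 and nfc104 had overlapping stages and differences of -0.07 and 0.07. No nfc gene reached an unadjusted p of 0.05 in the probe set that represents it.

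The nfd genes encode proteins with HMG boxes, which bend DNA. nfd110 is ssrp1, a subunit of the FACT complex that moves histones aside for polymerases, and had 10.58 and 10.48 at early silking and 9.53 and 10.07 at tassel emergence. The stages of nfd110 did not overlap, and the difference of 0.73 had an SE of 0.26 (limma, adjusted p = 0.199). nfd102, also named HMGe, had 10.40 and 10.82 at early silking and 9.81 and 9.95 at tassel emergence, which also differ by 0.73 (limma, adjusted p = 0.176). nfd104, with the synonym hmg2, and nfd101 overlapped between stages, at differences of 0.56 and -0.15. nfd101 was represented by a probe set shared by several transcripts. nfd106 was not tested, with values of 3.84 and 3.51 at early silking and 3.44 and 4.74 at tassel emergence.

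Polycomb proteins keep genes repressed by methylating a lysine of histone H3. The mez genes encode the Enhancer of zeste homologs that carry this methyltransferase activity, and mez1 had the opposite sign to mez2 and mez3. mez1 had log2 values of 5.70 and 5.38 at early silking and of 6.89 and 6.92 at tassel emergence. The stages were well apart for mez1, with a difference of -1.36 and an SE of 0.21 (limma, adjusted p = 0.0914). With each array left out in turn, the mez1 difference stayed between -1.52 and -1.20. mez2 had 8.69 and 8.80 at early silking and 8.73 and 8.29 at tassel emergence, and mez3 had 4.92 and 5.31 at early silking and 5.24 and 4.35 at tassel emergence. Both overlapped between the stages, at differences of 0.24 and 0.32, and whether mez1 differs from them in its stage difference was not tested.

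vef101, which carries the synonym EMF-like after a polycomb subunit with a VEFS box, had 8.73 and 8.96 at early silking and 8.69 and 8.08 at tassel emergence. Its stages were separate by a narrow margin, with a difference of 0.45 (limma, adjusted p = 0.383). fie2, the maize homolog of another polycomb subunit and no member by the rule, had 7.32 and 7.42 at early silking and 6.60 and 7.11 at tassel emergence. Its relative fie1 lay between 2.11 and 2.15 on all 4 arrays.

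The sdg genes encode SET domain proteins, the group to which most histone lysine methyltransferases belong. sdg110 had 5.88 and 5.83 at early silking and 6.26 and 6.44 at tassel emergence, a difference of -0.49 without overlap (limma, adjusted p = 0.211). Its other tested probe set had 4.93 and 4.65 at early silking and 4.32 and 4.53 at tassel emergence, a difference of 0.36 in the opposite direction, so sdg110 has no settled sign. It was the 1 gene of the 5 with several tested probe sets in which these disagreed in sign. sdg118 differed by 0.56 without overlap, while SDG123 and sdg113 overlapped, and sdg113 was above 4 on 1 array of each stage.

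DNA methyltransferases copy or set cytosine methylation. dmt101 is met1, which maintains methylation when DNA is replicated, and had 6.58 and 6.36 at early silking and 6.51 and 6.57 at tassel emergence, with overlapping stages. dmt106 differed by 0.35, and its silking arrays lay just above its tassel emergence arrays. DMT105, also named Zmet5, was not tested, since its 4 probe sets lay between 1.88 and 2.77 on every array.

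The mbd genes encode proteins with a methyl-CpG-binding domain, the domain by which such proteins read DNA methylation. Of the 7 measured genes, 5 had positive differences, 4 of these with separate stages and 3 with an unadjusted p under 0.05. The shares over all tested probe sets were 57.4% positive, 34.9% separate in the higher direction and 12.7% higher at that threshold. mbd111 had 10.46 and 10.11 at early silking and 9.54 and 9.33 at tassel emergence, which differ by 0.85 (SE 0.22, limma, adjusted p = 0.144). mbd101 had 10.12 and 9.85 at early silking and 9.32 and 9.06 at tassel emergence, which differ by 0.79 (SE 0.22, limma, adjusted p = 0.149). In both genes the distance between the stages was wider than the distance within either stage.

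mbd108 had 8.25 and 8.21 at early silking and 7.69 and 7.73 at tassel emergence, which differ by 0.52 (SE 0.17, limma, adjusted p = 0.184). mbd106 differed by 0.22 with a narrow separation. mbd105, mbd109 and mbd115 overlapped, at differences of -0.13, -0.04 and 0.14. mbd109 had the widest spread of the family, at 11.33 and 10.64 on the tassel emergence arrays.

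The linker histones of the hon family, which bind the DNA between nucleosomes, differed little between the stages. hon102, also named his1a, had 12.27 and 12.15 at early silking and 12.48 and 12.03 at tassel emergence, and hon101 had 9.16 and 8.96 at early silking and 9.00 and 9.05 at tassel emergence. Both overlapped, with differences of -0.05 and 0.03. gte102, a bromodomain gene whose protein type binds acetylated histones, ran the other way from most members. It had 9.64 and 9.39 at early silking and 10.20 and 10.23 at tassel emergence, a difference of -0.70 with an SE of 0.19 and no overlap (limma, adjusted p = 0.149).

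**Figure D3:**
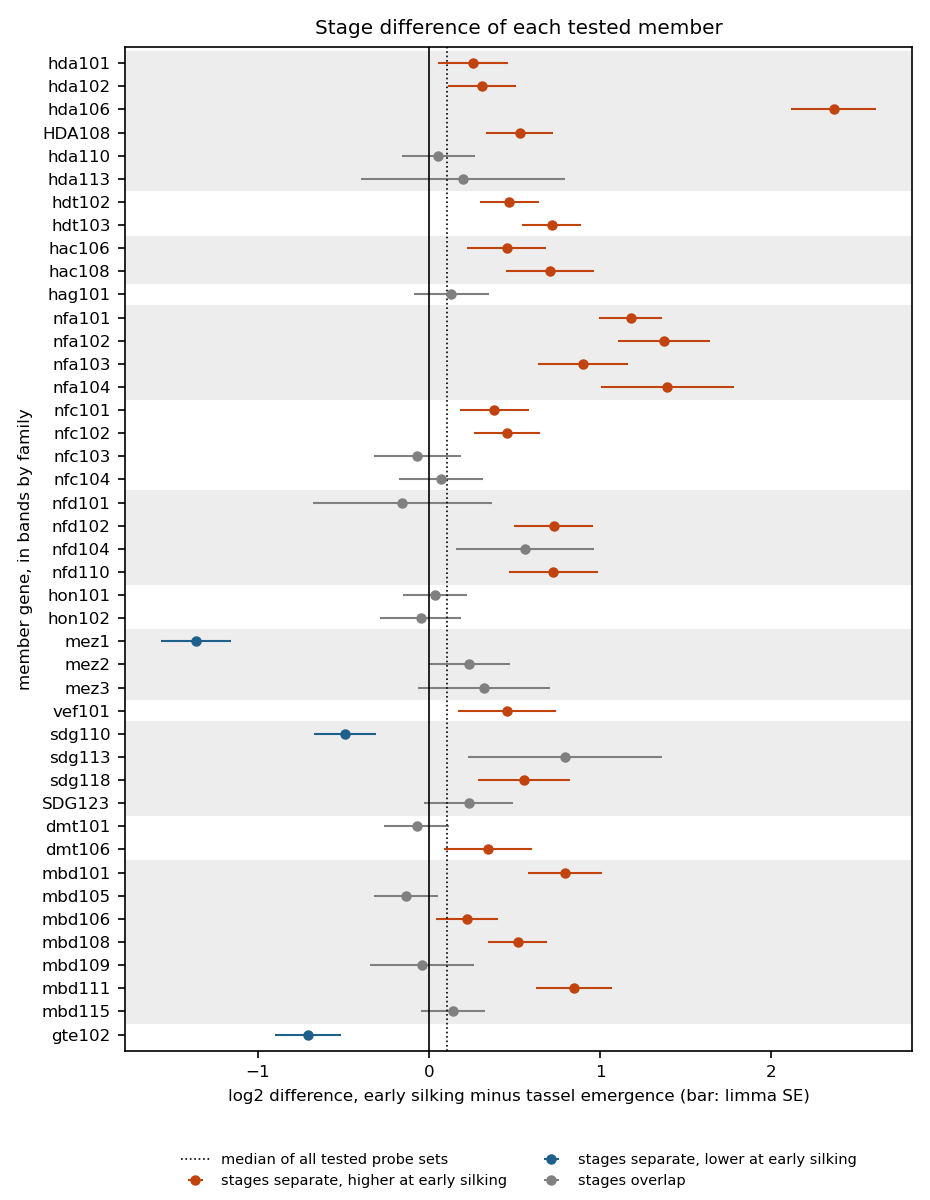
Difference between early silking and tassel emergence (log2) for the 43 tested members with the limma SE as a bar, coloured by whether the arrays of the stages were separate. The dotted line is the median of all tested probe sets, 0.10. hda106, whose tassel emergence values were below the filter value, and the nfa genes lie furthest right. mez1, gte102 and sdg110 are the members separate in the lower direction.

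Control transcripts carry probe sets at their 3' and 5' ends, and the difference between these (the 3' minus 5' gap) is a measure of RNA integrity and amplification. Averaged over 5 maize control transcripts, the gap was 1.84 and 2.37 on the early silking arrays and 4.57 and 2.88 on the tassel emergence arrays. The gap was thus smaller on both silking arrays, so gap and stage cannot be told apart on these arrays. The part of the gap in the stage differences was not tested. Tassel emergence replicate 1, which had the largest gap, was the lowest of the 4 arrays in 21 of the 43 members (48.8%), against 32.6% of all tested probe sets. Within tassel emergence, where stage is the same, replicate 1 was below replicate 2 in 28 members (65.1%). The same held for 52.9% of all tested probe sets and for 58.9% of tested named genes. The nfa genes had a median of -0.56 for replicate 1 minus replicate 2, the nfd genes -0.69, the hda genes -0.22, the mbd genes 0.16 and the hdt genes 0.04.

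With the gap as a covariate, a setting chosen after seeing the data, 5 members (11.6%) were higher and 1 (2.33%) lower at an unadjusted p under 0.05. Over all tested probe sets 11.7% were higher and 13.1% lower in that fit, so the share of higher members was that of the background. The median over members was then 0.25, beside 0.05 over all tested probe sets. The nfa101, nfa102, nfa103 and nfa104 differences were 1.02, 0.90, 0.47 and 0.87 in that fit, of which nfa101 kept an unadjusted p under 0.05. mez1 had -1.48, under that threshold, and hda106 was higher there too, with the limit on its tassel emergence values given above. hdt103 had 0.76, mbd111 0.94 and mbd101 0.94, each at a p above 0.05, and nfd110 had 0.23. vef101, mez3 and dmt106 had larger differences than without the covariate, at 1.05, 1.21 and 0.84, all at an unadjusted p under 0.05. This fit leaves 1 residual degree of freedom, and its covariate runs with stage. Its differences, larger or smaller, therefore do not separate gap from stage.

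**Figure D4:**
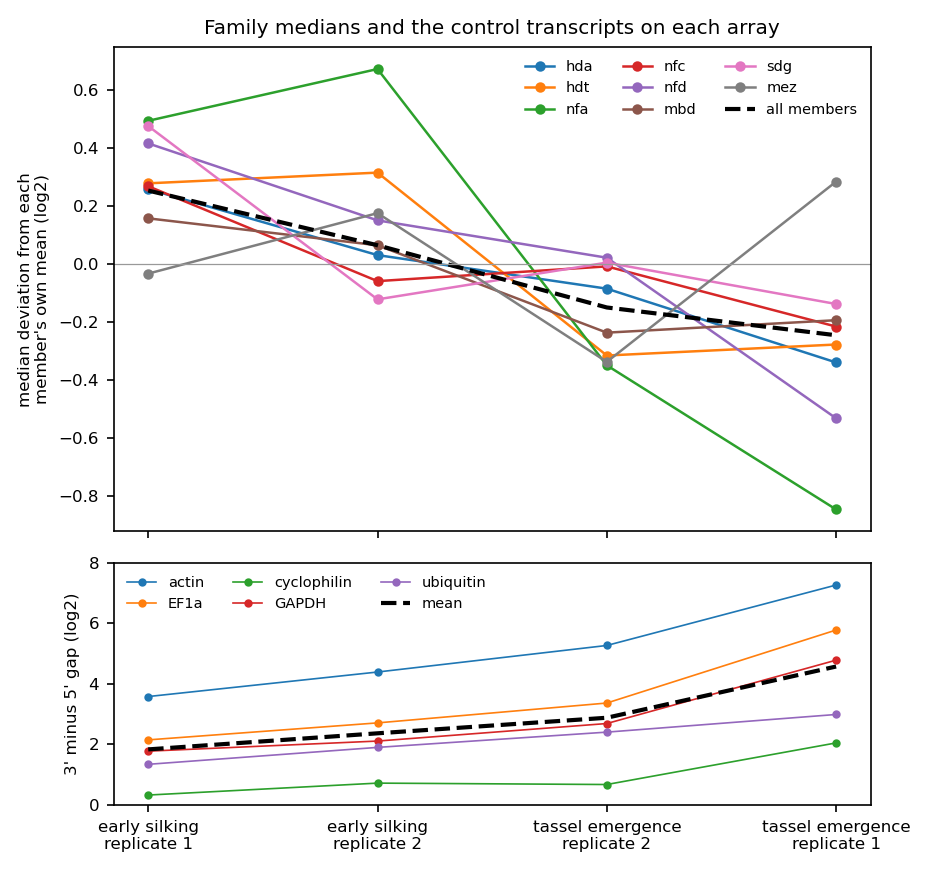
Upper panel: median over a family of each member's deviation from its own mean over the 4 arrays (log2), for 8 families and for all members. Lower panel: 3' minus 5' gap (log2) of 5 control transcripts and their mean on the same arrays, which are placed in the order of the mean gap. The nfa median is 0.50 and 0.67 on the silking arrays, and -0.35 and -0.85 on tassel emergence replicates 2 and 1.

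Genes of chromatin outside the rule, and of DNA replication, were taken by symbol for comparison. Of 8 further chromatin genes 7 were tested, with a median of 0.06, and none reached an unadjusted p of 0.05. Among them hxa102, the maize ada2 gene for a partner of the acetyltransferase gcn5, overlapped between stages at a difference of -0.003. epl101, an enhancer of polycomb-like gene, had 5.62 and 5.61 at early silking and 5.37 and 5.35 at tassel emergence, separate with a difference of 0.26. Of 10 replication and cell cycle genes 5 were tested, with a median of 0.05 and none at an unadjusted p under 0.05. The replication clamp gene PCNA (pcna1) had 4.73 and 4.84 at early silking and 4.72 and 4.76 at tassel emergence, and the cyclins cyc1, cyc2, cyc3 and cycD1 lay below 2.3 on every array. cdc2, a cyclin-dependent kinase, differed by 0.41 and the cyclin cycD2 by -0.61, both without overlap in the probe set with the highest mean. Of 3 histone genes outside the members 1 was tested, the linker histone gene H1. Its probe set with the highest mean differed by 0.11 with overlapping stages, and its other tested probe set by -0.20 without overlap, so H1 has no settled sign. The centromeric histone gene Hist1h3b and the histone gene his2b5 were not tested.

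For the series as a whole, array medians without controls lay between 6.35 and 6.46 at early silking and between 6.43 and 6.51 at tassel emergence. The stem wall genes bk2, cesa10, cesa11 and CesA12, markers of lignifying stem, ran from 9.82 to 11.40 at early silking and from 12.36 to 13.41 at tassel emergence. Of 9 kernel markers 3 were tested, GLB1, bt2 and gz27, and ran from 5.99 to 8.67 at early silking and from 5.92 to 9.08 at tassel emergence. The kernel markers not tested, among them a further gene listed as glb1, lay below a log2 value of 4 on every array. GLB1 and glb1 were matched by symbol with case ignored, and which of them is the planned kernel marker was not checked. The highest kernel value at each stage was that of GLB1. bt2 had a difference of 0.61 without overlap (limma, adjusted p = 0.190), and GLB1 and gz27 overlapped at differences of -0.14 and -0.49. Of 19 floral markers 7 were tested, from 4.34 to 12.36 at early silking and from 4.53 to 12.23 at tassel emergence. Among them zap1 differed by 1.19 (limma, adjusted p = 0.0987). MADS67, MADS15, zmm16 and zmm19 differed by 0.664, 0.335, 0.311 and 0.162, and zmm31 and zmm24 by -0.289 and -0.487. All 4 leaf photosynthesis markers were tested, from 7.18 to 14.42 at early silking and from 6.92 to 14.33 at tassel emergence. The part of these cell types in the members' differences was not tested. The arrays correlated across tested probe sets at r = 0.967 within early silking, 0.933 within tassel emergence and 0.883 to 0.914 between the stages.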

How the data were processed

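The authors deposited 1 log2 value per probe set and array, made with GCRMA per the submitters' processing notes, of a version not given in the sources used here. The values themselves show that they are on a log2 scale. Because GCRMA normalizes between arrays, a shift shared by all genes would not show, and with 4 arrays their number limits the precision. The stage difference, early silking minus tassel emergence, came from limma 3.58.1 (R 4.3.3, lmFit with eBayes, 2-sided) on all 10782 probe sets above a log2 value of 4 on at least 2 of 4 arrays, and adjusted over all of these by Benjamini-Hochberg. The fit was checked on simulated data. Genes were named through the platform table and RefSeq's gene table (Zm-B73-REFERENCE-NAM-5.0), which hold symbols and no descriptions, so comparison lists matched symbols alone. Members and lists were chosen with earlier results of these data known. In each family the text names the member with the highest mean, the largest rise and fall, and every member at an unadjusted p under 0.05. All mez, hda, hdt, dmt and nfa members are named. Members and comparison genes named beyond this were chosen after their values were seen. Alternatives were leaving out each array, the replicate block, no filter or a filter at 6, centring or quantile normalizing the arrays, an eBayes trend, an adjusted p under 0.1, adjustment over named genes and all probe sets of a gene. The control gap as covariate, the crossed pairs and a refit on named genes were chosen after seeing the data. No batch is given in the sources used here.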

Additional observations from a re-analysis of the deposited data

How the results depend on the processing

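With 2 arrays a stage, no member passed an adjusted p of 0.05 under the replicate block, the other filters, quantile values, centred arrays, the intensity trend, any left-out array, named genes refitted alone or the gap covariate. 1 member, hda106, passed when adjusted over named genes, but it entered the test through its silking arrays alone and is no support. At an adjusted p under 0.1 the count was 3 (mez1, nfa101 and, with the same limit, hda106). Higher members at an unadjusted p under 0.05 numbered 6 with the replicate block and 5 with the gap covariate, and lower members 1 in each of these fits, against 11 and 2. Of all probe sets 5.8% were higher with the block and 11.7% with the gap covariate, beside 11.6% of members in the gap fit. Leaving out any array gave fewer higher and fewer lower members at an unadjusted p under 0.05 than the full set of arrays. The share of all tested probe sets that were higher fell strongly without an early silking array and little without a tassel emergence array. Without a tassel emergence array, the members were thus closer to the background than with the full set. Each fit with an array left out leaves 1 array in a stage, so its counts at that threshold are not given. Members with separate stages then numbered 25 to 32 in the higher direction and 3 to 8 in the lower, with fewer arrays to be kept apart by construction. The share of all tested probe sets with separate stages was not worked out with an array left out. These counts therefore have no background to be read against. The fits with an array left out have 1 residual degree of freedom and take the lone array to vary like the others. The labels do not say that the replicate numbers pair arrays. Deviations of same-numbered arrays correlated at -0.42 across probe sets. With the pairs crossed 357 probe sets and 1 member passed, and that member was hda106, with the same limit. The differences of the 13 members at an unadjusted p under 0.05 kept their sign under quantile values, centred arrays and the gap covariate. They also kept it with each array left out, but all of these members had separate stages, so that outcome was fixed in advance. Over all 43 tested members, 31 kept their sign with each array left out. This was likewise fixed in advance for the 23 members separate in the higher direction and the 3 in the lower. The share of all tested probe sets that kept their sign was not worked out. The median over members stayed between 0.25 and 0.47 in these settings. The cause of these shifts was not tested.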
